A study of Caenorhabditis elegans with 5 samples.

Results

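Benzene and toluene are small aromatic solvents that differ by a single group: toluene is benzene carrying a methyl group on the ring. Their transcript effects were compared here directly, with the array of nematodes kept in benzene for 24 h set against the array of nematodes kept in toluene for 24 h, and no control in the difference. These are 2 of the 5 arrays of the series, and 1 pair of compounds was compared. Wild-type hermaphrodite Caenorhabditis elegans from an age-synchronised culture were exposed as young adults at 20 °C, without food, in a potassium and sodium chloride medium, and RNA of whole animals was hybridised to Affymetrix arrays. The other 3 arrays were an unexposed control, formaldehyde for 24 h, and a mix of benzene, toluene and formaldehyde (BTF mix) for 24 h. Exposure time was the same for both solvents, but the sources used here give no concentration, so the pair cannot be called matched in dose. Nor do they describe the incubation of the control.

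In mammals, benzene is oxidised on the ring itself by cytochrome P450 enzymes, through an epoxide to phenols, while toluene is oxidised mainly on its methyl group, and alcohol and aldehyde dehydrogenases then carry the product on to benzoic acid. In C. elegans, foreign compounds are met mostly in the intestine. There P450s of the cyp-35 subfamily, UDP-glucuronosyltransferases (UGTs), which attach a sugar, and glutathione S-transferases (GSTs), which attach glutathione, modify them, and ABC transporters move compounds out of cells.

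Each group was a single array. No error, test or p-value can be given, and every fold below is a difference between 2 arrays, not a measured effect of a compound with a replicate check. Levels were taken as log2(intensity + 16), a scale on which differences of dim genes are understated. Differences are benzene minus toluene, genes of low mean level over the 5 arrays were left out, and 10271 of 17118 genes remained. The benzene and toluene arrays had median intensities of 84.3 and 83.7. The RNA spikes added before labelling (poly-A spikes) were lower on the benzene array at 24 of 24 probe sets, by 0.31 on average on the log2 scale. The hybridisation spikes were also lower on the benzene array, at 16 of 18 probe sets, by 0.10 on average. Scaling the arrays on the poly-A spikes moved the median gene from 0.00 to 0.30. A signed difference here is therefore relative to how bright each array was as a whole. The ratio of 3' to 5' probe sets, which increases as RNA degrades, was 3.35 after benzene and 3.73 after toluene for actin, 2.41 and 2.56 for Gapdh and 15.5 and 18.9 for catalase, and it was nearly equal for ubiquitin. Its part in the differences was not tested.

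The 2 arrays were close, and where they were apart the benzene array was mostly the higher one. The median absolute difference over genes was 0.07. Exactly equal intensities were listed on both arrays for 787 of the 10271 genes (7.66%). At 1.5-fold, 105 genes stood higher after benzene (1.02% of genes) and 16 lower (0.156%), and at 2-fold the counts were 19 (0.185%) and 2 (0.0195%). At such shares a short gene list would often hold 0 genes apart, so a count of 0 below says little by itself. Among the genes kept, those apart were not mainly dim ones, but the level filter and the added 16 both hold down the count of dim genes. With a pseudocount of 1 in place of 16, 134 genes were 1.5-fold higher and 19 lower. When genes were split by level into 4 groups of equal size, 9 were 1.5-fold higher and 4 lower in the dimmest group, and from there to the brightest group 29, 38 and 29 were higher and 7, 2 and 3 lower.

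**Figure D1:**
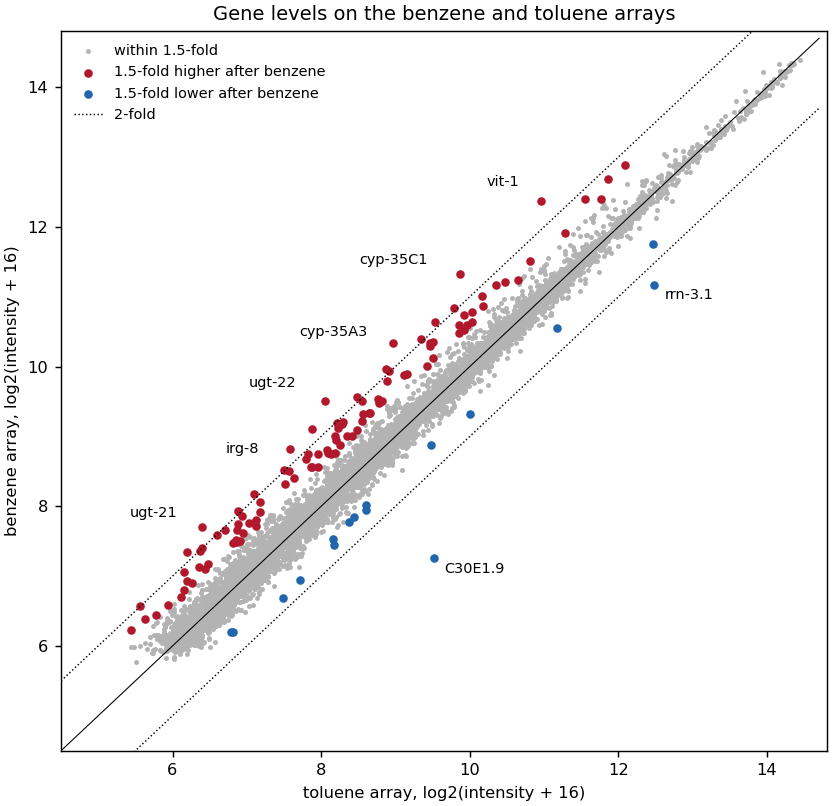
Level of each of 10271 genes on the toluene array (x axis) and the benzene array (y axis), both as log2(intensity + 16), with 1 array per group. Red points are the 105 genes at least 1.5-fold higher after benzene, blue points the 16 genes at least 1.5-fold lower, the solid line marks equal levels and the dotted lines mark 2-fold. Red points lie along the whole range of levels, while C30E1.9 and rrn-3.1 stand alone on the other side.

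Enzymes of foreign compound metabolism led the list of genes higher after benzene. ugt-22, a UGT gene, had the largest difference: its intensity was 186 in control, 249 with toluene, 711 with benzene, 1525 with formaldehyde and 1680.0 for the mix. ugt-21, another UGT gene, had 57.6 in control, 68.4 with toluene, 192 with benzene, 296 with formaldehyde and 317 for the mix. Toluene was somewhat above control for ugt-22 (by 0.39) and nearer to it for ugt-21 (0.20). For both genes benzene lay between toluene and formaldehyde, and it exceeded toluene by 1.46 for ugt-22 and 1.30 for ugt-21. Of 43 UGT genes past the level filter (64 measured), 5 were 1.5-fold higher after benzene and 0 lower. The other members were ugt-62 (348 after benzene and 174 after toluene), ugt-13 (226 and 129) and ugt-46 (429 and 253). The UGT median was 0.19 (0.08 over all 64 measured), and 34 of the 43 lay above 0 and 9 below, against 5125 above and 4359 below of all genes.

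The cyp-35 genes, P450s of the intestine that respond to many foreign compounds, had the largest median difference of the 49 gene lists examined. Of 10 measured members 7 passed the level filter. All 7 were above 0, 5 of them by at least 1.5-fold, and their median was 0.91. The median was 0.53 over all 10 measured members and 1.20 over the 4 that passed a filter at the 60th percentile. cyp-35C1 had 891 in control, 919.8 with toluene, 2539 with benzene, 5477 with formaldehyde and 6010.4 for the mix, so toluene was at the control level while benzene was far from it (1.45). A further probe set of cyp-35C1, whose name does not mark shared transcripts, gave 509 after benzene and 162 after toluene (1.56). cyp-35A3 had 365 in control, 484 with toluene, 1273 with benzene, 2811 with formaldehyde and 2887 for the mix (1.37). Here toluene was somewhat above control, as it was for the 2 members that follow. cyp-35A4 had 66.2, 102, 227, 663 and 745 on the same arrays in the same order (1.04). cyp-35A2 had 302, 458, 874, 1691 and 1847 (0.91). In these 4 genes the order of arrays was the same: control lowest, then toluene, benzene and formaldehyde, with the mix highest.

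The rest of the subfamily was nearer to equality. cyp-35A5 had 88.4 after benzene and 53.2 after toluene (0.59), just past 1.5-fold. cyp-35B1 had 73.6 after benzene and 48.6 after toluene (0.47), but 99.4 in control. This gene was therefore below control on both solvent arrays, more so after toluene. cyp-35B2 differed by 0.14. The 3 members below the level filter, cyp-35A1, cyp-35B3 and cyp-35D1, had between 14.6 and 46.4 on the 2 arrays and differed by no more than 0.14. Near-identical P450 sequences may share signal on an array.

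P450s outside cyp-35 were near equality. Of 63 measured 37 passed the filter, none was 1.5-fold apart in either direction, and their median was 0.02, against 0.00 for all genes. The member with the largest difference was cyp-25A2, with 210.0 after benzene and 155 after toluene (0.40). cyp-33C8 had 226 and 169 (0.39). Both were below control after toluene, where control was 189 for cyp-25A2 and 280.3 for cyp-33C8.

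GST genes had 3 of 28 members 1.5-fold higher and 0 lower, with a median of 0.13 that depended on the level filter, being 0.02 over all 45 measured and 0.24 over 15 at the 60th percentile. gst-26 had 94.3 in control, 129 with toluene, 251 with benzene, 562 with formaldehyde and 663 for the mix (0.89). gst-36 had 695 after benzene and 422 after toluene, with 269 in control (0.70). gst-13 differed from both in where the control lay. It had 463 in control, 456 after benzene and 290.2 after toluene (0.62), so that toluene was the lower one and benzene stayed at the control level.

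Among short-chain dehydrogenases, oxidoreductases that act on many substrates, 2 of 25 were 1.5-fold higher after benzene and 0 lower. dhs-25 had 571 after benzene and 281 after toluene (0.98), and dhs-23 had 117 and 55.2 (0.90). ABC transporters had 4 of 37 higher and 0 lower: the P-glycoprotein genes pgp-1 (59.2 and 27.5) and pgp-9 (107 and 57.4), and the peroxisomal half-transporter genes pmp-5 (728 and 420.2) and pmp-1 (80.5 and 45.5). pgp-1 was dim in control (26.7) and after toluene, and it passed the level filter with the help of the formaldehyde (89.3) and mix (135) arrays. The medians were 0.08 for dehydrogenases and 0.07 for transporters, and 0.04 for each with no level filter, so most members were close to equality.

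Alcohol and aldehyde dehydrogenases, the class that in mammals handles the oxidised methyl group of toluene, gave no gene 1.5-fold apart among 15 past the filter, and their median was 0.03. The largest differences were alh-5 (148 after benzene and 101 after toluene, 0.48) and alh-9 (523 and 397, 0.38), both higher after benzene. alh-1 was the member furthest on the toluene side, with 3210.5 after benzene and 3746 after toluene (-0.22). adh-1 had 8271 and 8655 (-0.07). Genes for epoxide hydrolases and for breakdown of tyrosine, a ring-bearing amino acid, were also near equality, with 0 of 8 members 1.5-fold apart and a median of 0.09. The highest was hpd-1, the hydroxyphenylpyruvate dioxygenase gene, with 1426 after benzene and 1153 after toluene (0.30). With 1 array each, none of these values shows that the compounds act alike on these genes.

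fmo-2, a flavin monooxygenase gene induced by low oxygen and by fasting, was at nearly the same level with both solvents. It had 54.6 in control, 178 with toluene, 173 with benzene, 186 with formaldehyde and 288 for the mix, and benzene and toluene differed by -0.04. phy-2, a collagen prolyl hydroxylase gene, had 1209 after benzene and 1239.6 after toluene, with 569 in control. Both genes stood far above control on each solvent array and next to each other on the pair. The control array and its unknown incubation are shared by those differences. Of 15 hypoxia response genes 0 were 1.5-fold apart between the solvents, with a median of 0.01.

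**Figure D2:**
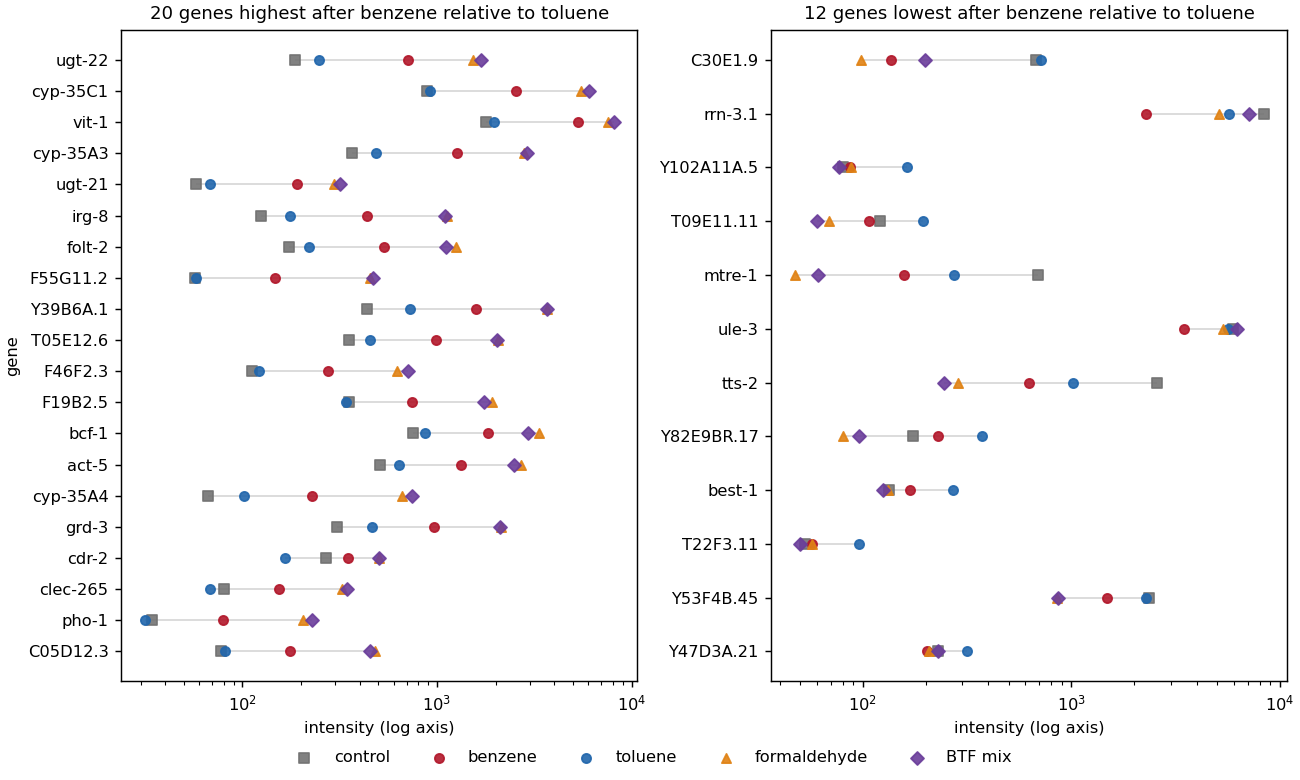
Intensity (log axis) on each of the 5 arrays for the 20 genes furthest to the benzene side and the 12 furthest to the toluene side; each symbol is 1 array and grey lines join the lowest and highest array of a gene. Among the 20 genes, benzene (red) lies between toluene (blue) and both the formaldehyde (orange) and mix (purple) arrays. Among the 12 the order of arrays differs from gene to gene.

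Intestinal genes of other kinds were also among the highest. act-5, the actin of intestinal microvilli, had 511 in control, 636 with toluene, 1325 with benzene, 2717 with formaldehyde and 2484 for the mix (1.04). Its probe set may bind several transcripts, and other actins are close in sequence. pho-1, an intestinal acid phosphatase gene, had 34.1 in control, 79.2 after benzene and 31.4 after toluene (1.00), and a further probe set gave 62.3 and 22.8 (1.01). The cathepsin B-like protease gene cpr-5 had 1576 after benzene and 1034 after toluene (0.60). The peptide transporter gene pept-1 had 252 and 168 (0.54). Of 29 intestine markers 3 were 1.5-fold higher and 0 lower. In that list 23 lay above 0 and 5 below, the lowest at -0.28. The median was 0.15, or 0.09 without probe sets that may bind several transcripts. In RNA of whole animals, fewer cells of a type and less RNA per cell cannot be told apart.

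Markers of other tissues had medians near equality. Of all genes 1.02% were 1.5-fold higher and 0.156% lower, so a count of 0 in lists this short does not set these tissues apart from other genes. Body wall muscle had 0 of 20 members 1.5-fold apart (median 0.00), neurons 0 of 13 (0.04), coelomocytes 0 of 3 (-0.05) and hypodermis 0 of 9 (-0.10). Pharynx markers had 1 of 17 higher, phat-4 with 419 after benzene and 256 after toluene (0.68), and a median of 0.09. The hypodermis median changed sign to 0.20 with poly-A spike scaling.

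A few genes of defence against microbes stood well apart. irg-8, an infection response gene, had 125 in control, 176 with toluene, 436 with benzene, 1127 with formaldehyde and 1094 for the mix (1.24). F55G11.2 had 57.1 in control, 57.5 with toluene, 146 with benzene, 453 with formaldehyde and 469.7 for the mix (1.14). For F55G11.2 toluene was at the control level. Of 40 infection response genes 5 were 1.5-fold higher and 0 lower (median 0.15, or 0.01 over all 74 measured). The other members were irg-4 (1856 after benzene and 1146 after toluene), dod-19 (302 and 166), and hrg-7 (500.3 and 276), which is known as a heme-regulated protease and not as a defence gene. dod-19 and irg-8 are next to each other in the gene table, with 0 protein-coding genes between them.

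Lysozymes, saposins and antimicrobial peptides had 3 of 25 members higher and 0 lower, with a median of 0.02. spp-4, a saposin-like gene, had 709.9 after benzene and 358 after toluene (0.96), and control was 328. The invertebrate lysozyme gene ilys-5 had 6588 and 3711 (0.83), and its other probe sets gave 0.83 and 0.80. lys-2 had 499.6 and 325 (0.60). C-type lectins had 2 of 70 higher, clec-265 with 153 and 68.1 (1.01) and clec-187 with 166 and 100.1 (0.65), and a median of 0.01.

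In each of 3 lists of stress genes 1 member was past 1.5-fold. hsp-17, a small heat shock protein gene, had 460.0 in control, 709.7 with toluene, 1286 with benzene, 1799 with formaldehyde and 1488 for the mix (0.84). hsp-16.41 had 2450.0 and 1650.5 (0.57) and hsp-16.2 had 2296 and 1604 (0.51) for benzene and toluene. hsp-16.20, listed with the same family, went the other way, with 123 and 172 (-0.43). In all, 1 of 11 small heat shock genes was 1.5-fold higher and 0 lower (median 0.06). hsp-70, a heat-inducible chaperone gene, had 2284 after benzene and 1295 after toluene (0.81), while 9 other members of the HSP70 and HSP90 list were within 1.5-fold. msra-1, the methionine sulfoxide reductase gene, had 2045 and 1135 (0.84) and was 1 of 23 oxidative defence genes past 1.5-fold. trxr-1, a thioredoxin reductase gene, had 238 and 333 (-0.46), but a further probe set of it gave 215 and 223 (-0.05).

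Of 9 metal response genes 2 were 1.5-fold higher after benzene, both of the cdr family, which is named for its response to cadmium. cdr-2 had 268 in control, 165 with toluene, 349.7 with benzene, 501 with formaldehyde and 506 for the mix (1.01). Toluene was below control for this gene and benzene above it. cdr-4 had 574 after benzene and 298 after toluene (0.91). The metallothionein gene mtl-2 differed by 0.23. DNA damage and repair genes had 0 of 41 members 1.5-fold apart and a median of 0.00.

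Lipid metabolism held genes whose toluene value was the low one. fat-5, a palmitoyl-CoA desaturase gene, had 406 in control, 99.2 with toluene, 167 with benzene, 179 with formaldehyde and 179 for the mix (0.67). All exposed arrays were below control for this gene, with toluene lowest. Other desaturases differed in direction, with fat-7 at 0.37, fat-4 at -0.24 and fat-3 at -0.35. fat-3, the delta-6 desaturase gene, had 5282 after benzene and 6724 after toluene. The desaturase median over 7 genes was -0.12, and it changed sign to 0.19 with poly-A spike scaling. Among 6 fatty acid elongases 2 were 1.5-fold higher after benzene: elo-2 with 477 and 279 (0.74) and elo-5 with 1526 and 980.4 (0.63). The elongase median was 0.28, but 0.05 over 5 genes without probe sets that may bind several transcripts and 0.57 over 4 genes with the level filter at the 60th percentile.

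Genes of beta-oxidation and acyl-CoA metabolism leaned to benzene without large differences, with 40 of 55 above 0, 12 below and a median of 0.14. acs-1, an acyl-CoA synthetase gene, was the 1 member past 1.5-fold, with 933 after benzene and 555 after toluene (0.73). hacd-1, a hydroxyacyl-CoA dehydrogenase gene, had 606 in control, 465 and 314 (0.54), below control on both solvent arrays. In the propionate shunt, an alternative route of propionate breakdown, hphd-1 had 1698 and 953 (0.82), hach-1 1351 and 998 (0.43), ech-6 3719.8 and 2854 (0.38) and acdh-1 6502 and 5278 (0.30), and the list median over 11 genes was 0.02. folt-2, a folate transporter gene, had 174 in control, 219 with toluene, 534 with benzene, 1253 with formaldehyde and 1112 for the mix (1.23). It was the 1 of 20 folate and one-carbon genes that passed 1.5-fold.

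vit-1 stood out among the vitellogenins, the yolk proteins made in the intestine. It had 1775 in control, 1966 with toluene, 5281 with benzene, 7578 with formaldehyde and 8124 for the mix (1.42). The other yolk genes were close to equal on the pair. vit-2, which is near to vit-1 in sequence, had 8677 after benzene and 8589 after toluene (0.01), vit-4 differed by 0.28, vit-5 by 0.16 and vit-6 by 0.06. Those 4 genes were bright, from 8589 to 20553 on the 2 arrays, where probe sets can approach saturation. The part of saturation in this was not tested.

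Sperm genes lay mostly on the benzene side. All 23 major sperm protein genes were above 0 with a median of 0.50, and 1 of them, msp-33, passed 1.5-fold, with 850.3 in control, 2401 after benzene and 1585 after toluene (0.59). All 23 rest on probe sets that may bind more than 1 member of this near-identical family, so they are not 23 separate measurements, and without such probe sets the 1 gene that remained stood at 0.18. Small sperm gene families had 22 of 25 members above 0 and a median of 0.29, with ssq-3 the 1 gene past 1.5-fold (416 and 264, 0.63). Its other probe sets gave 0.51 and 0.00. Genes of sperm formation and activation, most of which are single-copy, had a median of 0.08 with 0 of 19 apart. Oocyte and eggshell genes had 0.02 with 0 of 46 apart.

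Cuticle genes were near equality. Of 115 col genes 2 were 1.5-fold higher after benzene, col-98 with 1751 and 1027 (0.76) and col-159 with 5362 and 3454 (0.63), none was lower, and the median was 0.06, or 0.00 without probe sets that may bind several transcripts and 0.16 with the level filter at the 60th percentile. The 18 named body-shape and furrow collagens had 0 apart and a median of -0.03. Apical matrix and moulting genes had 31 of 44 members below 0 and a median of -0.10, and 0 were 1.5-fold apart. mlt-11 had 626 and 818 (-0.38), noah-1 1553 and 1983 (-0.35), and the peptidase-like acn-1 338 and 429 (-0.33). Their further probe sets gave smaller differences on the same side: -0.04, -0.17 and -0.25 for mlt-11, -0.16 for noah-1 and -0.23 for acn-1. The collagen gene dpy-14 had 1635 in control, 1626 with toluene, 1174 with benzene, 148 with formaldehyde and 147 for the mix (-0.46). Its level after toluene was that of control. With poly-A spike scaling the moulting median changed sign to 0.20. Hedgehog-related genes, which encode secreted proteins, had 3 of 20 members past 1.5-fold, all of the grd family: grd-3 with 966 after benzene and 465 after toluene (1.03), grd-5 with 563 and 295 (0.90) and grd-10 with 162 and 96.1 (0.67). The median of the hedgehog-related list was 0.00, with 8 members above 0 and 9 below. grd-3 and grd-10 are next to each other in the gene table.

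Housekeeping groups were close to equal. Cytosolic ribosomal proteins had 63 of 74 genes below 0, but the median was only -0.04 and none was 1.5-fold apart, and it changed sign to 0.27 with poly-A spike scaling. Proteasome subunits had a median of 0.02 over 33 genes, the respiratory chain -0.01 over 72 and histones 0.00 over 34, each with 0 genes 1.5-fold apart. Neuropeptides (87 genes) and nuclear hormone receptors (112 genes) also had 0 apart, with medians of 0.00 and -0.02.

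**Figure D3:**
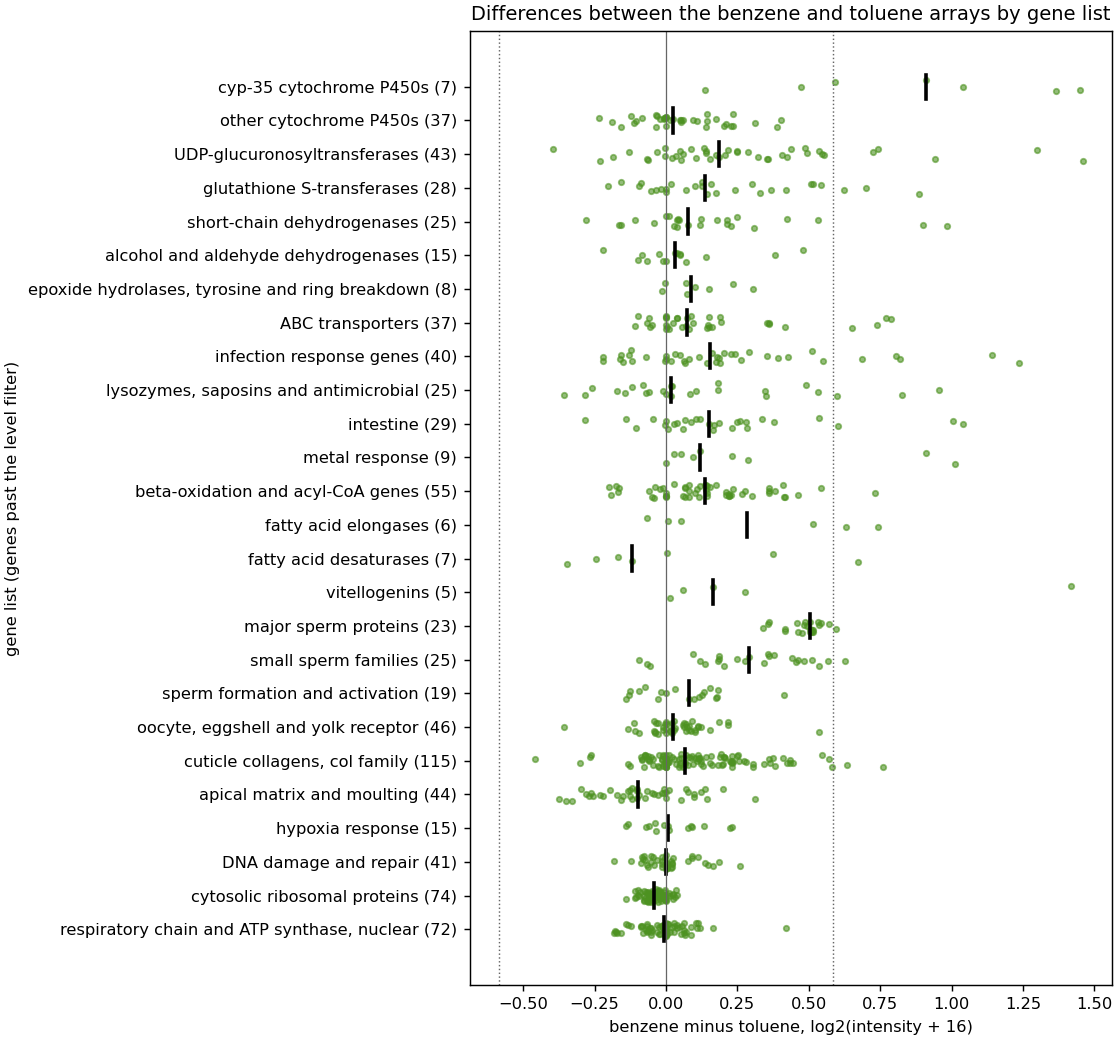
Difference between the benzene and toluene arrays, in log2(intensity + 16), for genes of a selection of the 49 lists; each point is a gene past the level filter, the black bar is the median of the list, the number of genes is in parentheses, and dotted lines mark 1.5-fold. The cyp-35 median (0.91) and the major sperm protein median (0.50) lie furthest right. Where a list drawn has members past 1.5-fold they lie on the right, and several lists have none. The list of non-coding transcripts is not drawn: 2 of its 4 members were 1.5-fold lower after benzene, and its median was -0.43.

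Genes higher after toluene were fewer. C30E1.9 had the largest difference of all genes. It had 674 in control, 717 with toluene, 137 with benzene, 98.1 with formaldehyde and 199.8 for the mix (-2.26), so that toluene matched control and the 3 other exposed arrays were far below. rrn-3.1, a large-subunit ribosomal RNA gene, had 8378, 5693, 2289, 5094 and 7078 on the arrays in that order (-1.31), with benzene the lowest array. Its 4 other probe sets gave between -0.98 and -0.67. tts-2, a non-coding transcript, had 2571, 1014, 624, 285 and 245 (-0.69). mtre-1 had 694, 273, 158, 47.1 and 61.3 (-0.74). For tts-2 and mtre-1 control was highest, followed by toluene and then benzene, with formaldehyde and the mix lower still. The order of control, toluene and benzene was the reverse of that in cyp-35C1, cyp-35A2, cyp-35A3 and cyp-35A4.

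Other genes were high on the toluene array alone. Y102A11A.5 had 80.5 in control, 163 with toluene, 86.7 with benzene, 87.8 with formaldehyde and 77.1 for the mix (-0.80). best-1, of the bestrophin chloride channel family, had 134, 270.1, 168, 132 and 125 (-0.63). T22F3.11 had 52.8, 96.3, 57.2, 57.2 and 49.9 (-0.62), and its other probe set gave -0.83. Toluene was at least 1.5-fold above all other arrays for 5 genes, these 3 with T09E11.11 (-0.77) and Y82E9BR.17 (-0.66), and at least 1.5-fold below all others for 4 genes. Those 4 were fat-5, cdr-2, and, chosen after their values were seen, lbp-7, a fatty acid binding protein gene with 207 after benzene and 123 after toluene, and C29F3.7 with 498 and 309. Benzene stood that far above all others for 0 genes and below for 2, rrn-3.1 and ule-3. ule-3 had 3454 after benzene and 5615 after toluene (-0.70), but a further probe set whose name does not mark shared transcripts gave 4489 and 4442 (0.02). Y53F4B.45 (-0.62) likewise had a further, dim probe set at 0.00.

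The genes apart between the solvents were placed against the 3 other arrays. Those arrays are not in the difference, but they entered the mean level by which genes were filtered and probe sets chosen, so genes such as pgp-1 and pho-1, dim in control and after toluene, could pass through the formaldehyde and mix arrays. Among the 105 genes higher after benzene, formaldehyde lay above both solvents for 102 (97.1%, against 32.6% of all genes), and the mix for 100 (95.2%, against 36.1%). With probe sets and the filter chosen from the benzene and toluene arrays alone, an alternative added after the data were seen, 103 genes were higher, and formaldehyde lay above both solvents for 99 of them (96.1%, against 31.7%). In the main setting, formaldehyde was at least 1.5-fold above control for 97 of the 105 genes, while 8.67% of all genes were. Among the 16 genes lower after benzene, formaldehyde was at least 1.5-fold below control for 9 (6.43% of all genes were) and lay below both solvents for 10 (62.5%, against 43.7% of all genes). The medians over the 105 genes were 0.12 for toluene minus control, 0.97 for benzene minus control, 1.76 for formaldehyde minus control and 1.81 for the mix minus control. The first 2 of these use the arrays that chose the genes. For 66 of the 105 genes (62.9%, against 10.5% of all genes) the order was control, toluene, benzene, formaldehyde from low to high. In that order benzene above toluene was fixed by the choice of genes. The 3 genes for which formaldehyde did not exceed both solvents were gst-13, and, chosen after their values were seen, faah-2 (632 after benzene, 387 after toluene, 572 after formaldehyde) and K08D8.4. Control lay above benzene for 3 of the 105, fat-5, gst-13 and lbp-7.

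Over all 10271 genes, benzene minus toluene went with formaldehyde minus control, a difference that shares no array with it (Pearson r = 0.60, Spearman rho = 0.42). For the mix minus control the values were 0.60 and 0.41. These describe a correlation across genes, which are not independent replicates and share the normalisation of the arrays. Without the 121 genes that were 1.5-fold apart the first correlation was 0.53 (rho 0.40) over 10150 genes. For the mix minus formaldehyde it was -0.05 (rho -0.05).

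The relation was graded. The median of benzene minus toluene was -0.30 over the 34 genes at least 4-fold lower after formaldehyde than in control, -0.15 over the 199 genes 2- to 4-fold lower and -0.08 over the 427 genes 1.5- to 2-fold lower. It was 0.00 over the 8720 genes within 1.5-fold, 0.17 over the 424 genes 1.5- to 2-fold higher, 0.29 over the 371 genes 2- to 4-fold higher and 0.53 over the 96 genes at least 4-fold higher. All 96 of these last genes were above 0, and 40 were 1.5-fold higher after benzene than after toluene. Of the 105 genes 7 lay among the genes within 1.5-fold after formaldehyde, and of the 16 lower genes another 7. The concentrations being unknown, a difference in kind between the solvents and a difference in effective dose cannot be told apart.

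**Figure D4:**
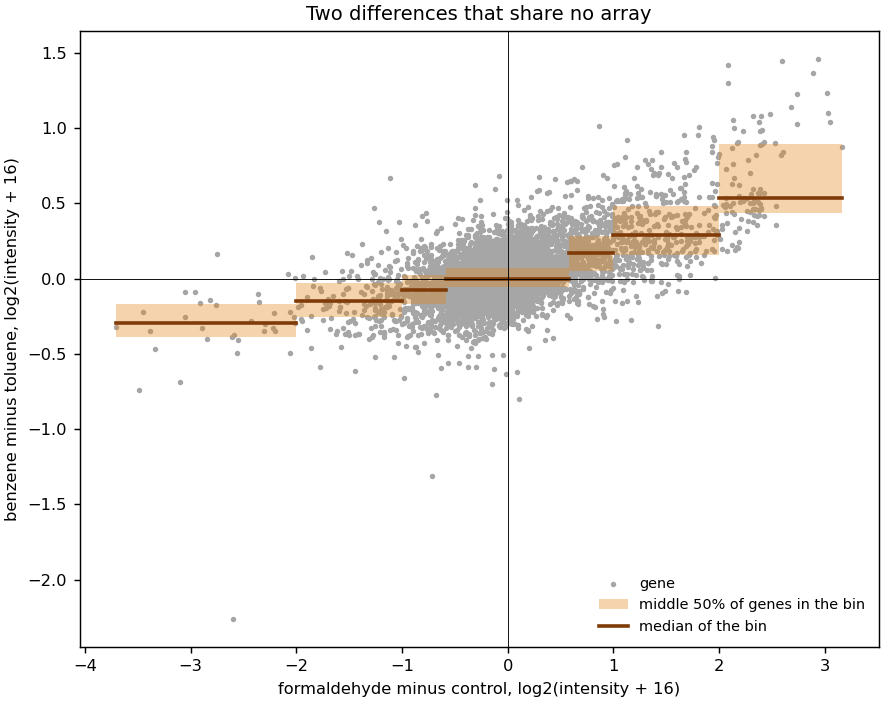
Benzene minus toluene (y axis) against formaldehyde minus control (x axis) for 10271 genes, both in log2(intensity + 16). Brown lines are medians and orange bands the interquartile range of the genes in 7 ranges of the x axis, and the medians go from -0.30 in the lowest range to 0.53 in the highest.

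Set against the control array, which both differences share, benzene was 1.5-fold higher for 357 genes (3.48%) and lower for 94 (0.915%), and toluene was higher for 161 (1.57%) and lower for 81 (0.789%). No gene was 1.5-fold above control with one solvent and 1.5-fold below it with the other (0 of 10271). Among the 105 genes with benzene the higher, 38 rest on probe sets that may bind several transcripts. Of the 105, 17 had further probe sets, 20 in number, of which 19 lay on the benzene side and 16 of those by at least 1.5-fold. Among the 16 genes with benzene the lower, 5 had 9 further probe sets, of which 6 lay on the same side.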

How the data were processed

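Transcript levels were measured on 5 Affymetrix arrays, 1 per group, with samples grouped by their titles. The deposited values are probe set intensities on a linear scale, from 9.15 to 22222, for 22625 probe sets. RMA, MAS5 and Affymetrix Expression Console 1.1 appear in the submitters' processing notes with no role, and no normalisation between arrays is described there. No counts or depth exist for arrays, and the number of arrays limits the precision.

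A single gene was named by the platform annotation for 20766 probe sets, of which 20701 matched a RefSeq gene table. The 887 probe sets naming several genes, the 895 naming none and 77 control probe sets were left out of gene counts. The probe set with the highest mean stood for each of 17118 genes, and genes at or above the 40th percentile of mean log2(intensity + 16) were kept. The difference was computed with Python 3.11.15, numpy 2.4.6 and pandas 2.3.3. The steps were tested on simulated data. The fixed sizes were 1.5-fold and 2-fold, and no test was made.

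Named genes were the 20 furthest to the benzene side and the 12 furthest to the toluene side, all cyp-35 genes, up to 5 members of each of 49 lists with a difference of at least 0.2, and fmo-2, phy-2, fat-5, adh-1 and vitellogenins. The comparison, the lists and these rules were chosen with earlier results of these data known. A gene can belong to more than 1 list. No protein, promoter or probe sequence was used here.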

Additional observations from a re-analysis of the deposited data

How the results depend on the processing

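The counts of genes apart depended most on scaling. With poly-A spike scaling benzene was 2-fold higher for 68 genes and lower for 1, 536 were 1.5-fold higher and 2 lower, the median absolute difference was 0.30, and formaldehyde lay above both solvents for 68.3% of the 1.5-fold higher genes in place of 97.1%. That scaling moves every gene towards benzene, so the share of 1.5-fold calls on the benzene side, 99.6% against 86.8%, follows from it. Under that scaling the list median was 0.19 for desaturases and 0.20 for hypodermis, both reversed from medians at least 0.1 below 0. Lists with smaller negative medians changed sign too, among them moulting (0.20), cuticlins (0.17), ribosomal proteins (0.27) and nuclear hormone receptors (0.26). Non-coding transcripts stayed below 0 (-0.12). Median centring gave 98 genes 1.5-fold higher and quantile normalization 94, of which 98 and 93 were among the 105. A pseudocount of 64 gave 9 genes 2-fold higher and 8 genes 1.5-fold lower. The mean of probe sets gave 1 gene 2-fold lower. Without s and x probe sets ule-3 stood at 0.015, reversed, and 75 genes were 1.5-fold higher. List medians at least 0.1 from that of all genes numbered 14 of 49, with 9 under no level filter and 20 with the filter at the 60th percentile. The correlation with formaldehyde minus control lay between 0.56 and 0.65 over the alternatives run. Choosing probe sets and the filter from the benzene and toluene arrays alone, added after the data were seen, gave 103 genes 1.5-fold higher and 16 lower, and ule-3 again at 0.015. The causes of the other shifts were not tested. No paired analysis was possible because each group holds 1 array. Both arrays lack a replicate, so no difference can be set against the spread between cultures.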

Other observations

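Gene groups outside the lists also appear among the 105 genes higher after benzene, of which 53 belong to no list. The groups below were chosen after their values were seen and support nothing. Intestinal proteases were present: cpr-9, a cathepsin B-like gene, had 5387 after benzene and 2994 after toluene (0.84), the astacin gene nas-20 had 198 and 102 (0.87), the aspartyl protease gene asp-8 stood at 0.62, and the cathepsin A-like genes ctsa-3.1 and ctsa-2 stood at 0.77 and 0.59. Galectins, sugar-binding proteins, gave lec-10 with 1245 and 688 (0.84), lec-9 with 624 and 361 (0.76) and lec-6 at 0.64. The fatty acid binding protein genes lbp-6 and lbp-7 stood at 0.70 and 0.68. gcsh-1, of the glycine cleavage system, had 128 and 73.2 (0.69).

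Of 753 probe sets past the level filter that name several genes or none, benzene was 1.5-fold higher for 5 and lower for 2, and 0 were 2-fold apart. One that names the paired genes thn-1 and thn-2, of the thaumatin family, had 449 in control, 762 with toluene, 457 with benzene, 276 with formaldehyde and 269 for the mix, so toluene was the highest array.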
